A study of Mus musculus with 12 samples.

Results

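Transcripts of 9 genes that build or mark the neuromuscular junction were followed in mouse muscle after ectopic expression of *FRAIL1*: *Agrn*, *Lrp4*, *Musk*, *Dok7*, *Rapsn*, *Colq*, *Ache*, *Ncam1* and *Etv5*. The list was given by gene name, with earlier results of these data known, and all 9 were among the 27179 genes counted and among the 15502 genes that had enough reads to be tested. The data come from 12 tibialis anterior (TA) muscles of 6 male wild-type C57BL/6N mice, which arrived at an age of 6 to 8 weeks and were used no more than 2 weeks later. In each mouse, the TA of 1 leg received empty pcDNA3 plasmid (Control, n = 6) and the TA of the other leg received plasmid carrying full-length human *FRAIL1*, a long noncoding RNA, under the cytomegalovirus promoter (*FRAIL1*, n = 6). Every muscle was given 10 μg of plasmid by electroporation after hyaluronidase, and was taken at day 7. The cytomegalovirus promoter is active in many cell types, and the Control muscle of a mouse shares its circulation with the *FRAIL1* muscle.

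Polyadenylated RNA of whole muscle was sequenced, and the authors deposited the number of uniquely mapped reads per gene. Total counts lay between 44848322 and 60527385 per muscle, and each of the 9 genes had between 125 and 4226 counts in every muscle. Values are given as CPM, counts of a gene relative to all counts of its library, scaled between libraries by TMM, a method that makes the bulk of genes comparable. In whole tissue, fewer cells of a type and less RNA per cell cannot be told apart, and few nuclei of a fiber lie under its junction. *FRAIL1* is not among the mouse genes counted, so the delivered transcript itself was not checked in these libraries. *FRAIL1* muscle 5 stood apart from the other libraries: on the first principal component, which held 32.4% of the variance, it lay at 59.5, while the remaining *FRAIL1* muscles lay at 25.8 or below and the Control muscles between -25.9 and -11.0. For *Ncam1*, and for calls and summed levels that it moves most, values without it are given too. A list of 10 myofiber genes was detected in every muscle, with a summed level of 137202 to 160137 CPM in Control and 107049 to 144534 CPM in *FRAIL1* muscles, so the labelled tissue was found in all 12 libraries.

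The junction is assembled from both sides of the synaptic cleft. Motor axons release agrin, which binds the receptor Lrp4 on the muscle fiber; Lrp4 then activates the kinase MuSK, and with the adaptor Dok7 this leads the scaffold rapsyn to gather acetylcholine receptors beneath the nerve terminal. Acetylcholinesterase, held in the cleft by the collagen tail ColQ, ends each signal, while the adhesion molecule Ncam1 and the ETS transcription factor Etv5 mark the postsynaptic membrane and the nuclei beneath it. In innervated adult fibers many of these transcripts are made mainly by the nuclei under the junction, and several, receptor subunits and *Ncam1* among them, are known to rise along the whole fiber when it loses its nerve or regenerates.

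Of the 9 genes, *Ncam1* alone passed the test as set, and *Lrp4* joined it in 6 of 22 alternative settings, a block for the replicate number among them. It was 2.55-fold higher in *FRAIL1* than in Control muscles, whereas the other 8 had fitted folds between 0.946 and 1.23 and adjusted p between 0.0529 and 0.810 by edgeR (quasi-likelihood test, adjusted by Benjamini-Hochberg over all genes tested). Over all genes tested, 6.28% passed the threshold of 0.05 in either direction, and 1 of 9 is 11.1%, so the number of calls among the 9 was not far from that background. By unadjusted p under 0.05, 3 of the 9 genes (*Ncam1*, *Lrp4* and *Ache*) differed, against 27.7% of all genes. The fitted log2 fold change was above 0 for 8 of the 9, against 51.6% of all genes, and the median over the 9 was 0.11, against 0.0096 over all genes. For 7 of the 9 genes the 95% interval of the log2 fold change lay within 0.5 of 0, which is 1.41-fold either way; the exceptions were *Ncam1* and *Musk*. The groups did not overlap in 1 of the 9 genes, *Ncam1*, while 4.88% of all genes had groups that did not overlap, 3.12% with *FRAIL1* above and 1.77% with *FRAIL1* below Control.

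**Figure D1:**
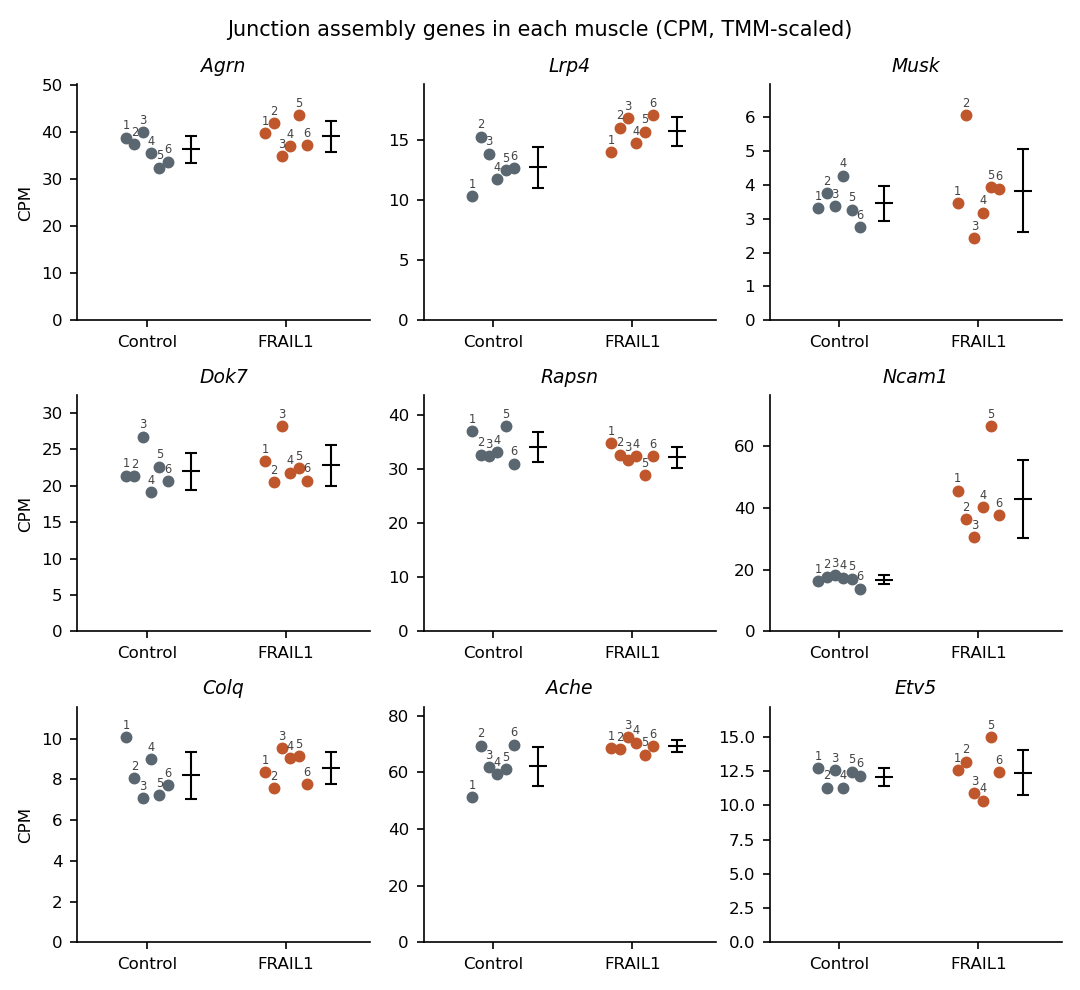
Level of each of the 9 genes in CPM (vertical axis, from 0) in the 6 Control and 6 *FRAIL1* muscles; each point is 1 muscle with its number, and the bar beside a group is its mean ± SD. The *Ncam1* points of *FRAIL1* muscles, 30.5 to 66.5 CPM, all lie above those of Control muscles, while the groups of the other 8 genes overlap.

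*Agrn* (Gene ID 11603; GRCm38 chr4:156165290-156197533, minus strand) encodes agrin, the ligand, of which the muscle makes a form of its own beside the one made by nerve. Its level in Control muscles was 32.3 CPM at the lowest, 36.5 at the median and 39.9 at the highest, and in *FRAIL1* muscles 34.9, 38.4 and 43.5 CPM. Muscles 2 and 5 of the *FRAIL1* group were above the Control range, and the other 4 were within it. The difference of 0.11 on the log2 scale (SE 0.0683, 95% interval -0.040 to 0.25, adjusted p = 0.330) did not pass the test.

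*Lrp4* (Gene ID 228357; chr2:91457456-91513901, plus strand) encodes the muscle receptor for agrin. It ranged from 10.3 to 15.3 CPM in Control muscles (median 12.6) and from 14.0 to 17.1 CPM in *FRAIL1* muscles (median 15.9). The groups overlapped: 4 of the 6 *FRAIL1* muscles were above every Control muscle, and *FRAIL1* muscles 1 and 4 were within the Control range, which Control muscle 2 stretched upward. With means of 12.7 ± 1.72 CPM in Control and 15.7 ± 1.18 CPM in *FRAIL1* muscles (SD, n = 6 each), the fold was 1.23 and the log2 fold change 0.30 (SE 0.0888, 95% interval 0.12 to 0.49). Its adjusted p of 0.0529 (unadjusted 0.00365) lay just outside the threshold. It passed in 6 of 22 alternative settings: without Control muscle 2 (0.0403), with upper-quartile scaling and with a filter of at least 10 counts in every muscle (0.0493 each), with DESeq2 (0.0257), and with a block for the replicate number in edgeR (0.0174) and DESeq2 (0.00652). The highest adjusted p of the alternatives was 0.102, without Control muscle 1.

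*Musk* (Gene ID 18198; chr4:58285729-58377848, plus strand) encodes the receptor tyrosine kinase at the centre of the pathway. It was the least abundant of the 9 per length of transcript, at 2.74 to 4.26 CPM in Control muscles (median 3.35) and 2.42 to 6.04 CPM in *FRAIL1* muscles (median 3.67). *FRAIL1* muscle 2 was above every Control muscle, *FRAIL1* muscle 3 was below every Control muscle, and the other 4 were within the Control range. The spread was wider than for the other genes of the signalling core, with a coefficient of variation of 14.8% in Control and 32% in *FRAIL1* muscles, and the log2 fold change of 0.14 (SE 0.184, 95% interval -0.25 to 0.54, adjusted p = 0.643) changed sign, to -0.038, without *FRAIL1* muscle 2. The interval also holds the difference fitted for *Lrp4*.

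The promoters of *Musk* and of a pair of receptor subunit genes are shown because E-boxes, the sequence CANNTG that myogenic factors such as myogenin bind, are known to control junction genes, and because the subunit genes rose while *Musk* did not pass the test. Each line gives the bases from 180 to 11 before the start of the RefSeq transcript, 5′ to 3′ on the strand of the gene in GRCm38.p6, with CANNTG in capitals. The stretches are chr4:58285782-58285951 for *Musk* (plus strand), chr2:73580349-73580518 for *Chrna1* (minus strand) and chr1:87205631-87205800 for *Chrng* (plus strand).
Musk: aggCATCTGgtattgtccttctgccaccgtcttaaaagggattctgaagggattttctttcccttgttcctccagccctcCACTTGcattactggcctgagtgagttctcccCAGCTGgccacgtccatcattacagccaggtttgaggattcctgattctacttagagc
Chrna1: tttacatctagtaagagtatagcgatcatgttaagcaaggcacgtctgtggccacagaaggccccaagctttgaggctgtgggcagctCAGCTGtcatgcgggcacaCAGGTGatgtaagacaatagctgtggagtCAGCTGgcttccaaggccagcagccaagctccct
Chrng: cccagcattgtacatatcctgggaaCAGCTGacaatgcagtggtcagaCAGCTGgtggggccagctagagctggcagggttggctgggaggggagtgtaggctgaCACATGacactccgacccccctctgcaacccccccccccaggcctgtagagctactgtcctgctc

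All 3 stretches held 3 matches to CANNTG. In *Musk* they began 177, 100 and 68 bases before the start, in *Chrna1* 92, 73 and 44, and in *Chrng* 155, 132 and 75. The form CAGCTG, which is part of the CANNTG matches and reads the same on both strands, was the nearest match to the start in *Musk* and *Chrna1* and occurred 2 times each in *Chrna1* and *Chrng*. Such letters are common: CANNTG was in 72.3% and CAGCTG in 16.3% of 32851 RefSeq windows of 300 bases around mouse gene starts. Among the junction genes, *Musk*, *Dok7*, *Agrn*, *Ache* and *Etv5* had 8 such windows between them, of which 5 held CANNTG and 2 (*Musk* and *Etv5*) CAGCTG. The N-box CCGGAA, bound by ETS factors, was searched on both strands; it was in 0 of those 8 windows, in 14.9% of all windows, and once in the window of *Chrne*, 76 bases before the start.

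*Dok7* (Gene ID 231134; chr5:35056571-35087839, plus strand) encodes the cytoplasmic adaptor that MuSK needs for full activity. Its levels were 19.1 to 26.7 CPM in Control muscles (median 21.3) and 20.5 to 28.2 CPM in *FRAIL1* muscles (median 22.1). Only muscle 3 of the *FRAIL1* group was above the Control range, and the muscle numbered 3 was also the highest of the Control group. The log2 fold change was 0.056 (SE 0.0897, 95% interval -0.13 to 0.25, adjusted p = 0.723), and it was -0.014 without *FRAIL1* muscle 3.

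*Rapsn* (Gene ID 19400; chr2:91035472-91045729, plus strand) encodes rapsyn, the scaffold under the receptor clusters. It was the only gene of the 9 with a fitted fold change below 0. Control muscles held 31.1 to 38.0 CPM (median 33.0) and *FRAIL1* muscles 29.0 to 34.9 CPM (median 32.5), with *FRAIL1* muscle 5 below every Control muscle and the other 5 within the Control range. The log2 fold change was -0.081 (SE 0.0622, 95% interval -0.21 to 0.052, adjusted p = 0.419), so that a fall past 0.21 on the log2 scale lay outside the interval.

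The receptor subunits that rapsyn gathers gave other values in the same muscles. *Chrna1*, the subunit that carries most of the acetylcholine binding site, was at 29.5 ± 3.56 CPM in Control and 81.0 ± 19.2 CPM in *FRAIL1* muscles (SD, n = 6 each; log2 fold change 1.46, adjusted p = 3.4e-04), and *Chrng*, the subunit of fetal receptors, was at 3.51 ± 1.14 and 12.9 ± 3.56 CPM (1.88, adjusted p = 0.00160). *Chrnd* (log2 fold change 1.22, adjusted p = 0.00209) and *Chrnb1* (0.73, adjusted p = 0.00391) rose as well. *Chrne*, the subunit of adult receptors, rose least, by 0.36 on the log2 scale (adjusted p = 0.0227), with overlapping groups, and no longer passed without Control muscle 2, Control muscle 3 or *FRAIL1* muscle 1 (adjusted p of up to 0.0567). The median of the 5 subunits was 1.22, against 0.11 for the 9 assembly genes. The log2 fold change of *Ncam1*, given below, lay between those of *Chrnd* and *Chrna1*. Without *FRAIL1* muscle 5 all 5 subunits still passed. Their log2 fold changes were then 1.35 (*Chrna1*), 1.78 (*Chrng*), 1.11 (*Chrnd*), 0.60 (*Chrnb1*) and 0.32 (*Chrne*).

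**Figure D2:**
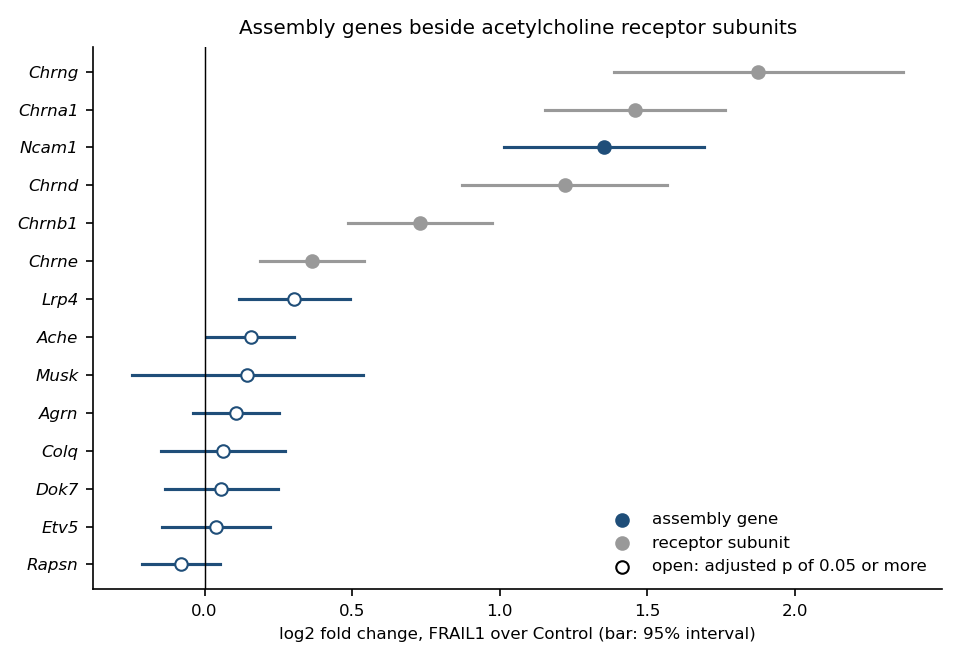
Log2 fold change of *FRAIL1* over Control muscles (horizontal axis) with its 95% interval for the 9 assembly genes (blue) and 5 acetylcholine receptor subunits (grey); open points had an adjusted p of 0.05 or more. *Ncam1*, at 1.35, lies between *Chrnd* and *Chrna1*, and the points of the other 8 assembly genes lie between -0.081 and 0.30, below those of all 5 subunits. The intervals of *Lrp4* (0.12 to 0.49) and *Musk* (-0.25 to 0.54), among others, overlap that of *Chrne* (0.19 to 0.54).

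*Colq* (Gene ID 382864; chr14:31523082-31577863, minus strand) encodes the collagen tail that anchors acetylcholinesterase in the basal lamina. It was at 7.10 to 10.1 CPM in Control muscles (median 7.89) and 7.56 to 9.53 CPM in *FRAIL1* muscles (median 8.71), and all 6 *FRAIL1* muscles were within the Control range. The log2 fold change of 0.063 had an SE of 0.0991, a 95% interval from -0.15 to 0.27 and an adjusted p of 0.719. An overlapping gene on the same strand covers 5.23% of the exons of *Colq*. Whether that gene was part of the read counting was not checked, so reads there may or may not be counted for *Colq*.

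*Ache* (Gene ID 11423; chr5:137288247-137294466, plus strand) encodes the enzyme itself. Control muscles ranged from 51.2 to 69.8 CPM (median 61.5) and *FRAIL1* muscles from 66.3 to 72.4 CPM (median 69.0), so the *FRAIL1* values sat at and just over the top of the Control range, with *FRAIL1* muscles 3 and 4 above it. The mean was 62.1 ± 6.93 CPM in Control and 69.2 ± 2.09 CPM in *FRAIL1* muscles (SD, n = 6 each), a log2 fold change of 0.16 (SE 0.0691, 95% interval 0.0092 to 0.30). With an unadjusted p of 0.0388 and an adjusted p of 0.157 it did not pass the test, and it did not pass under any of the 22 alternative settings.

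*Ncam1* (Gene ID 17967; chr9:49502129-49799393, minus strand) encodes an adhesion molecule of the junction that is also found on muscle precursor cells, on fibers without a nerve and on Schwann cells. In Control muscles 1 to 6 it was at 16.4, 17.7, 18.3, 17.4, 17.1 and 13.9 CPM. In *FRAIL1* muscles 1 to 6 it was at 45.6, 36.4, 30.5, 40.4, 66.5 and 37.6 CPM. The lowest *FRAIL1* muscle, muscle 3, was well above the highest Control muscle, and muscle 5 was the highest by a wide margin.

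The means were 16.8 ± 1.55 CPM in Control and 42.9 ± 12.6 CPM in *FRAIL1* muscles (SD, n = 6 each), and the log2 fold change was 1.35 (SE 0.157, 95% interval 1.01 to 1.69, adjusted p = 0.00128), or 2.55-fold with an interval from 2.02 to 3.23. By unadjusted p *Ncam1* ranked 11 among the 15502 genes tested. Without *FRAIL1* muscle 5 the log2 fold change was 1.18, with an adjusted p of 7.2e-06. *Ncam1* passed under all 22 alternative settings, with a log2 fold change from 1.18 to 1.43 and an adjusted p of at most 0.00733. An antisense gene overlaps 4.81% of its exons, and the strand setting of the read counting is not given in the sources used here.

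**Figure D3:**
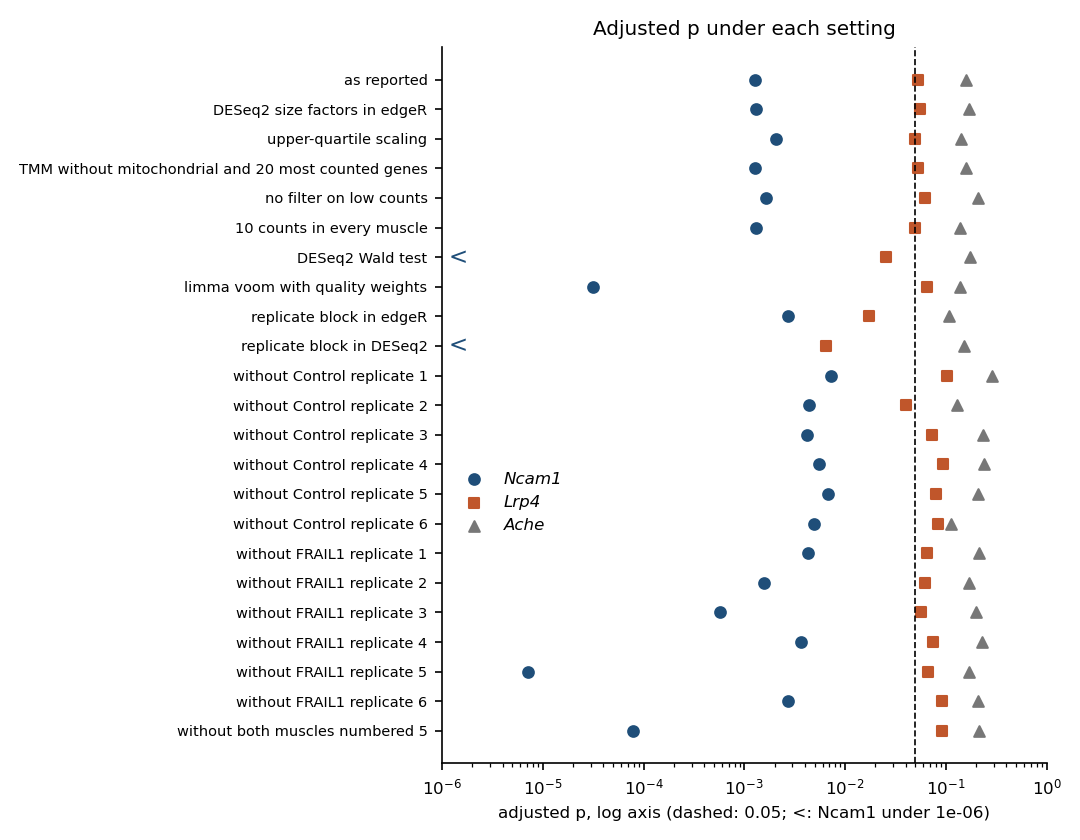
Adjusted p (horizontal axis, log scale) of *Ncam1*, *Lrp4* and *Ache* under the analysis as reported and 22 alternative settings (vertical axis); the dashed line is the threshold of 0.05. *Ncam1* lies below it in all settings, *Ache* above it in all, and *Lrp4* below it in 6 of the 22 alternatives.

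The ratio of *Ncam1* to each of the other 8 genes is given within each muscle as a description with no test, since *Ncam1* was set against the others for its own difference and all 8 ratios share it. Such a ratio of 2 genes in 1 library does not depend on library scaling. The log2 ratio was higher in *FRAIL1* than in Control muscles by 1.0 (to *Lrp4*) up to 1.39 (to *Rapsn*), and for all 8 partners the groups did not overlap.

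The order of the *FRAIL1* muscles by *Ncam1* was 5, 1, 4, 6, 2 and 3, from the highest to the lowest. This was also their order on the first principal component of all genes tested, with all 6 ranks the same. The other 8 assembly genes shared between 0 (*Lrp4*) and 3 (*Agrn*) ranks with it. *Ncam1* is 1 of the genes in that component, so the match is a description over 6 muscles.

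*Etv5* (Gene ID 104156; chr16:22381313-22439570, minus strand) encodes an ETS factor that is enriched in the nuclei beneath the junction and acts on receptor subunit genes. It was at 11.3 to 12.7 CPM in Control muscles (median 12.3) and 10.3 to 15 CPM in *FRAIL1* muscles (median 12.5). The *FRAIL1* values spread to both sides of a narrow Control range, 2 above it, 2 within it and 2 below it. The log2 fold change was 0.038 (SE 0.0858, 95% interval -0.15 to 0.22, adjusted p = 0.810), and without *FRAIL1* muscle 5 it was -0.025.

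Levels of different genes were compared per length, as CPM per kilobase of exon. In Control muscles the order was *Rapsn* (18.9), *Ache* (13.4), *Dok7* (5.14), *Agrn* (3.90), *Etv5* (2.94), *Colq* (2.16), *Ncam1* (1.94), *Lrp4* (1.21) and *Musk* (0.914). Neighbours in this order did not overlap across the 6 Control muscles except *Colq* with *Ncam1* and *Lrp4* with *Musk*. In *FRAIL1* muscles *Ncam1* was at 4.95 ± 1.45 CPM per kilobase (SD, n = 6), near *Dok7* at 5.34 ± 0.662, while *Rapsn* (17.9) and *Ache* (15) were still the most abundant and *Musk* (1.01) the least.

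The genes around the agrin, Lrp4 and MuSK core were followed in lists of known partners. Of 26 partners of the pathway, 5 rose, 0 passed as lower and 21 did not pass, with a median log2 fold change of -0.060 against 0.0096 over all genes. In one direction, 4.43% of all genes passed as higher and 1.85% as lower. The 5 that rose were *Pak1* (0.67, adjusted p = 0.00328), a kinase of actin regulation downstream of MuSK, *Cttn* (0.30, 0.0217), which encodes the actin regulator cortactin, the polarity gene *Vangl2* (0.93, 0.0203), the Wnt ligand *Wnt11* (0.60, 0.0198) and the small GTPase *Cdc42* (0.22, 0.04999). *Cdc42* did not pass in 16 of the 22 alternatives, among them the one without *FRAIL1* muscle 5 (adjusted p = 0.0600). *Vangl2* was near the lower limit of detection, at 0.689 CPM in Control and 1.32 CPM in *FRAIL1* muscles. Just outside the threshold were *Ptpn11*, the phosphatase Shp2, at -0.24 (adjusted p = 0.0520) and the small GTPase gene *Rac1* at -0.17 (0.0521). So was the adaptor gene *Sorbs2* at -0.55 (0.0520). Of partners above 0 that did not pass, *Rhoa* at 0.20 (0.0584) and *Src* at 0.52 (0.0606) came closest. Every *FRAIL1* muscle was below every Control muscle for *Ptpn11* and *Rac1*, and above for *Pak1*, *Cttn*, *Wnt11*, *Cdc42* and *Rhoa*. Over all genes tested, 1.77% had *FRAIL1* below and 3.12% had it above Control without overlap. The number of partners that passed was 12 with DESeq2, 10 with limma, 3 without Control muscle 1 and 11 without *FRAIL1* muscle 3.

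Of 17 genes of neuregulin signalling and ETS transcription, the other route to synaptic gene expression, 15 had enough reads and 1 rose. *Erbb2*, a receptor of neuregulin, went from 5.86 ± 0.349 to 9.95 ± 2.16 CPM (SD, n = 6 each; log2 fold change 0.76, adjusted p = 0.00391), with groups that did not overlap. The receptor gene *Erbb3* lay just outside the threshold, at 0.44 (adjusted p = 0.0531), with overlapping groups, and did not pass in 17 of the 22 alternatives. The factors *Etv4* (-0.0052), *Etv1* (-0.14) and *Gabpa* (-0.052), close in role to *Etv5*, did not pass, and the list had a median of -0.0052. The count was 2 with DESeq2 and 2 without Control muscle 2, *FRAIL1* muscle 2 or *FRAIL1* muscle 3.

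Of 22 genes of the synaptic basal lamina and the dystroglycan complex, where ColQ and agrin are held, 0 passed in edgeR's test, 5 had an unadjusted p under 0.05, and 2 passed with DESeq2 and 1 with limma. Their median was 0.14, and utrophin, *Utrn*, which is concentrated at the junction, had a log2 fold change of 0.049. In the same test 1 gene of this list passed without *FRAIL1* muscle 2 and 1 without *FRAIL1* muscle 3.

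Of 14 other genes of the postsynaptic membrane and endplate nuclei, 3 rose and 1 fell. *Nes*, the intermediate filament gene nestin (0.78, adjusted p = 0.0227), *Camk2b*, a calcium-dependent kinase (0.34, 0.0297), and *Prkar1a*, a regulatory subunit of protein kinase A (0.28, 0.0423), were higher, and *Scn4a*, the muscle sodium channel (-0.48, 0.0470), was lower in *FRAIL1* muscles. The number of calls depended on single muscles: 0 passed without Control muscle 1 or *FRAIL1* muscle 1. It was 1 without any single one of Control muscles 2 to 5, and 2 without Control muscle 6, *FRAIL1* muscle 4 or *FRAIL1* muscle 6. Of the 22 alternatives, *Nes* did not pass in 2, *Camk2b* in 6, *Prkar1a* in 9 and *Scn4a* in 10.

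Of 14 muscle genes whose level depends on nerve activity, 4 rose and 0 fell, with a median of 0.49; 2 passed without Control muscle 2 and 3 without *FRAIL1* muscle 5. *Myh3* (2.16, adjusted p = 0.0124) and *Myh8* (1.84, 0.0227) encode the embryonic and perinatal myosin heavy chains, *Myog* (1.46, 0.0124) encodes myogenin, and *Runx1* (0.89, 0.0277) encodes a transcription factor that is known to rise in muscle without a nerve. Without *FRAIL1* muscle 5 the log2 fold changes were 1.69 for *Myh3*, 1.33 for *Myh8*, 1.14 for *Myog* and 0.78 for *Runx1*, of which *Runx1* no longer passed (adjusted p = 0.0503). Of the other 10 genes, 5 had a value below 0: the ubiquitin ligase genes *Fbxo32* (-0.50) and *Trim63* (-0.31), *Dach2* (-0.19), and the histone deacetylase genes *Hdac9* (-0.18) and *Hdac4* (-0.14).

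**Figure D4:**
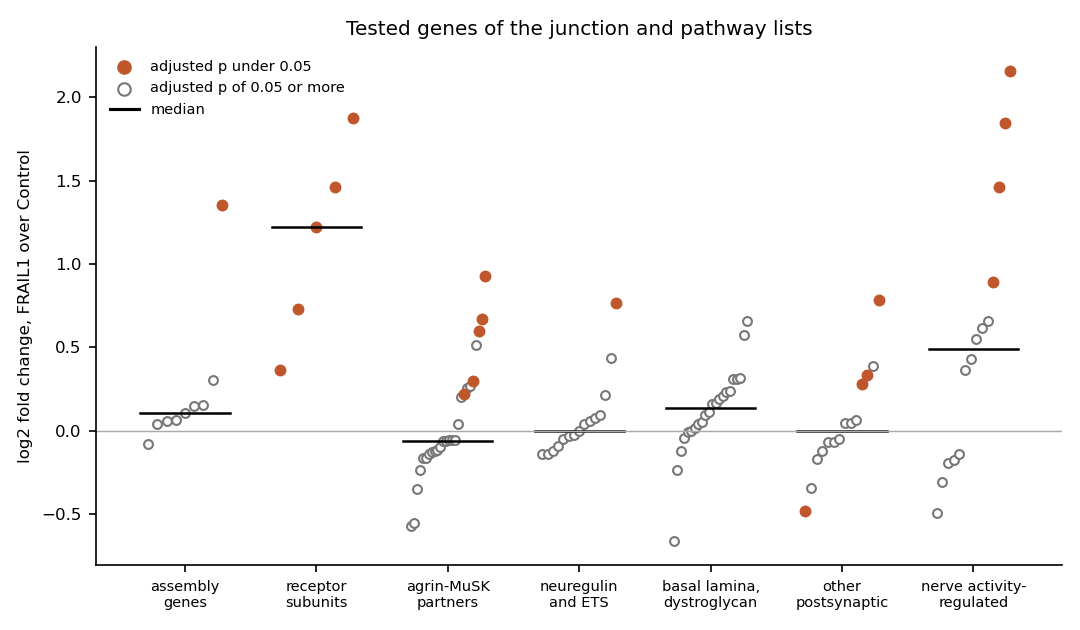
Log2 fold change of *FRAIL1* over Control muscles (vertical axis) for each tested gene of the 9 assembly genes and 6 lists of junction and pathway genes (horizontal axis); filled points had an adjusted p under 0.05 and the bar is the median of a list. The median was 1.22 for receptor subunits and 0.49 for nerve activity-regulated genes, and between -0.060 and 0.14 for the other lists.

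Markers of other cells in the muscle were read beside *Ncam1*, because precursor cells and Schwann cells also express it. All 10 satellite cell and myoblast markers had a log2 fold change above 0, with a median of 0.46, and 3 rose (6 with DESeq2): *Myog* and the fusion genes *Mymk* (1.85, adjusted p = 0.00265) and *Mymx* (1.76, 0.00324). Their summed level was 106 to 118 CPM in Control and 139 to 218 CPM in *FRAIL1* muscles, above every Control muscle in all 6. The highest *FRAIL1* sum was 168 CPM without *FRAIL1* muscle 5. *Myog* and *Myod1* are also among the nerve activity genes above. Within this sum, the mean of *Myog* went from 11.8 CPM in Control to 32.4 CPM in *FRAIL1* muscles. Of 12 Schwann cell markers, 0 passed in edgeR's test, 3 had an unadjusted p under 0.05, and 3 passed with DESeq2 and 0 with limma. Their median was -0.22, and their summed level was 74.6 to 137 CPM in Control and 59.8 to 98.0 CPM in *FRAIL1* muscles, so that in 0 of the 6 *FRAIL1* muscles this sum was above the Control range, where *Ncam1* was above it in all 6. Without *FRAIL1* muscle 1, 2, 3 or 6, 1 Schwann cell marker passed.

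Of 10 fibro-adipogenic markers, 0 passed in edgeR's test, although 5 had an unadjusted p under 0.05, 3 passed with DESeq2 and 2 with limma, and 2, 3 and 2 passed without *FRAIL1* muscle 2, 3 and 5. Their median was 0.37, and 8 of the 10 had a log2 fold change above 0. Their summed level was 1310 to 2394 CPM in Control and 2465 to 5281 CPM in *FRAIL1* muscles, where the highest was 2757 CPM without *FRAIL1* muscle 5. The mean of this sum went from 1993 to 3018 CPM. Within it, the collagen genes *Col1a1* and *Col3a1* went from 449 to 927 and from 731 to 1293 CPM. *Dcn* was at 184 CPM in Control and 186 CPM in *FRAIL1* muscles, and *Gsn* at 462 and 402 CPM. Of 10 macrophage markers, 0 passed in edgeR's test, 6 had an unadjusted p under 0.05, 6 passed with DESeq2 and 2 with limma, and 3 and 6 passed without *FRAIL1* muscle 2 and 3. Their median was 0.58, and their sum was 184 to 295 and 232 to 517 CPM. Of 10 endothelial markers, 2 fell (*Tek* and *Flt1*), with a median of -0.21 and sums of 558 to 660 and 445 to 564 CPM. The count was 1 with Control muscle 1, 2, 3, 4 or 6 or *FRAIL1* muscle 1 or 6 left out. It was 3 with *FRAIL1* muscle 5 left out and 4 with *FRAIL1* muscle 3 left out. Of the 10 myofiber genes, 1 fell, *Ckm* (-0.38, adjusted p = 0.0482; 3 passed with DESeq2 and 4 with limma), with a median of -0.22, and 0 passed without any single Control muscle or without *FRAIL1* muscle 1, 4 or 6, while the count rose to 2 with *FRAIL1* muscle 2 or 5 left out and to 4 with *FRAIL1* muscle 3 left out. No marker of these lists was at 0 in all muscles. The part of these cell types in the rise of *Ncam1* was not tested.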

How the data were processed

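RNA-seq counts of 12 TA muscles, 6 Control and 6 *FRAIL1*, were analysed. Per the authors' methods and the submitters' processing notes, paired-end reads of 150 bases were trimmed (Trimmomatic), aligned to mm10 by STAR 2.7.8a and counted with featureCounts 2.0.1 where they mapped uniquely. The deposited values are whole-number counts per gene without normalization. Of 27179 NCBI Gene IDs, 25275 were matched to a RefSeq symbol (GRCm38.p6), and the rest held 0.28% of counts. Within a group, no pair of libraries agreed within sampling noise (chi-square per degree of freedom of 14.5 or more).

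Genes were filtered with filterByExpr, scaled with TMM (factors 0.935 to 1.19) and tested in edgeR 4.0.16 (R 4.3.3; glmQLFit with robust estimation, glmQLFTest), without a term for the mouse, with Benjamini-Hochberg adjustment over 15502 genes and a threshold of 0.05. Each SE was derived from the log2 fold change and the F statistic of its test, and the 95% intervals use this SE with a t quantile. The spread between 6 muscles, rather than depth, sets most errors, since each gene had at least 125 counts.

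The genes and lists were chosen with earlier results of these data known. All 9 genes, all 5 receptor subunits and the list genes past the threshold were named. Named after their values were seen were *Utrn*, *Etv4*, *Etv1*, *Gabpa*, *Erbb3*, *Ptpn11*, *Rac1*, *Sorbs2*, *Rhoa*, *Src*, *Myod1*, *Col1a1*, *Col3a1*, *Dcn* and *Gsn*. So were markers past the threshold and the nerve activity genes below 0. Alternatives were other scalings and filters, DESeq2 1.42.0, limma 3.58.1 with voom, a replicate block and each muscle left out. Leaving single muscles out of the list counts was chosen after seeing the data. Exon lengths and overlaps are from GENCODE M21, and promoters from RefSeq. *Rapsn*, *Lrp4*, *Colq* and *Ncam1* had no promoter window in the table used.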

Additional observations from a re-analysis of the deposited data

How the results depend on the processing

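*Ncam1* passed the threshold under all 22 alternatives, and *Ache*, *Agrn*, *Musk*, *Dok7*, *Rapsn*, *Colq* and *Etv5* under none. The number of the 9 genes that passed was 1 as reported and 2, with *Lrp4* added, under upper-quartile scaling, with at least 10 counts in every muscle, with DESeq2's Wald test and with the replicate block in edgeR or DESeq2; leaving out single muscles gave 1 to 2. The adjusted p of *Lrp4* ranged from 0.00652 to 0.102. Over all genes, 974 passed as reported, 2154 with DESeq2, 1756 with limma voom, 2186 with the replicate block in edgeR, 2829 with the replicate block in DESeq2, and 364 to 2110 without single muscles (364 without *FRAIL1* muscle 1, at most 601 without any single Control muscle or *FRAIL1* muscle 4 or 6, 1579 without *FRAIL1* muscle 2 and 2110 without *FRAIL1* muscle 3). The other alternatives gave counts between 758 and 1097. The sign of the log2 fold change turned for 3 genes that did not pass: *Musk*, with single muscles left out, ranged from -0.038 (without *FRAIL1* replicate 2) to 0.25, *Dok7* from -0.014 (without *FRAIL1* replicate 3) to 0.12, and *Etv5* from -0.025 (without *FRAIL1* replicate 5) to 0.084, and *Etv5* was at -0.0065 with limma voom and -0.017 without both muscles numbered 5. The causes were not tested.

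Muscles carry the numbers 1 to 6 in both groups, but the labels do not say that a number marks a mouse. Deviations from the group means correlated at 0.0547 to 0.282 between muscles of the same number (mean 0.200), over 0.1 in 5 of 6 pairs. Of the 12 muscles, 10 correlated best with their own number. The mean of -0.040 between different numbers is nearly set by taking out the group means, so it is no separate comparison. The labels, and not these correlations, are why the replicate block was kept as an alternative and not as a pairing by mouse. The test as reported thus takes no account of legs that share a mouse. Among the 9 genes the block changed the call of *Lrp4* alone. With the block in edgeR, 8 of the 26 pathway partners passed, against 5 as reported.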

Other observations

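Within the groups, after group means were taken out, the 36 pairs of the 9 genes had Pearson correlations of log2 CPM over 12 muscles from -0.610 (*Musk* with *Dok7*) to 0.727 (*Lrp4* with *Ache*), and 22 of the 36 were below 0. *Agrn* went with *Ncam1* (0.626) and with *Etv5* (0.613). The pairs share their libraries and scaling, and 12 muscles leave each value imprecise.

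The genes outside the 9 whose levels were most like the mean of the 9, by the same measure over 12 muscles, were *Tmem121b* (r = 0.894), *Cenpf* (0.881), *Cpd* (0.857), *Mybl2* (0.854) and *Micall1* (0.846). These are the highest among all other genes tested and are given as a description. *Tmem121b*, at 0.321 CPM in Control and 0.234 CPM in *FRAIL1* muscles, is near the lower limit of detection. Of the 5, *Cpd*, a carboxypeptidase gene (log2 fold change 0.37, adjusted p = 0.00328), and *Cenpf*, a gene of dividing cells (0.60, adjusted p = 0.0454), rose in *FRAIL1* muscles in edgeR's quasi-likelihood test.

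In the group of 6 *FRAIL1* muscles, *Dok7* muscle 3 came closest to standing apart by Dixon's ratio, at 0.624, and 0 of the 18 groups of the 9 genes were past the 95% critical value for 6 samples.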
